A study of Mus musculus with 9 samples.

Results

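The cytosolic ribosomal protein genes of NIH/3T3 cells were followed through UVA irradiation with and without α-arbutin. They were chosen by symbol: every row of the expression table named Rpl or Rps with a number and at most one of the letters a, x or l, the 3 P-stalk genes, Rpsa, Rpl36al, Rpl7l1 and Rpl22l1. This gave 86 of 56691 genes, 54 of the large and 32 of the small subunit, with no symbol repeated. The rule uses no measured value, though it was set with earlier results of these data known. Of the 86 genes, 83 passed the filter on low counts and were tested. The other 3 were Rpl10l, Rpl3l and Rps4l, with 1, 6 and 1 counts over all 9 libraries. Named pseudogenes stand in rows of their own and are not members.

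NIH/3T3 is an established line of mouse embryonic fibroblasts, labelled wild type. The bulk RNA-seq data hold 3 groups of 3 libraries: untreated control cells, cells given UVA at 10 J/cm2, and cells given that UVA dose and α-arbutin (called co-treated here, whatever the order), a glycosylated hydroquinone used against skin pigmentation. The study's title concerns UVA photodamage, DNA damage and the loss of collagen. The UVA libraries are titled MOCK, and the group is called UVA here from its treatment label. No group received α-arbutin without UVA, and 1 cell line was used. Neither the α-arbutin dose nor the harvest time is given in the labels, which also do not say that the libraries are separate cultures, so p-values measure the spread between these libraries, which may be technical.

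Library totals ran from 16298348 to 20862894 counts, with 21026 to 21815 genes above 0. Libraries of a group differed by more than sampling noise. A list of fibroblast markers, with Col1a2 and Vim among them, was summed in CPM (counts scaled to a common library size). The sum was 12008 to 12391 CPM in control libraries and 8333 to 8992 CPM in the 6 irradiated ones, though single markers moved both ways. Markers of other cell types were low in all libraries: at most 4.55 CPM for epithelial, 9.99 for immune, 5.89 for endothelial and 4.84 for muscle lists, with Epcam, Krt5, Cd3e and Myod1 at 0. Of 10 tested fibroblast markers 2 rose and 7 fell after UVA (90% called by edgeR, against 29.3% of all tested genes). Mitochondrially encoded RNA held 3.52 to 3.72% of counts in control and 3.76 to 4.01% in irradiated libraries. The part of either in the results below was not tested.

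Ribosomal proteins assemble with ribosomal RNA in the nucleolus into the small subunit, which reads the mRNA, and the large subunit, which joins amino acids. Their mRNAs are among the most abundant of a growing fibroblast. Most begin with a terminal oligopyrimidine (TOP) tract, a C followed by a run of C and T, through which mTOR and the RNA-binding protein LARP1 control their translation and stability. The proteins are needed in equal amounts, and unassembled RPL5 and RPL11 bind MDM2, the ubiquitin ligase of p53, when ribosome assembly is disturbed.

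In control cells the tested genes spanned 2.33 to 1302 FPKM (counts scaled by exonic size and library total), with a median of 260.3 and 68 of 83 at 100 FPKM or more. Rplp1, an acidic protein of the P-stalk that recruits translation factors, had the highest level, 1302 ± 45.6 FPKM (SD, n = 3). Rps15 of the small subunit head followed with 1208 ± 31.0 FPKM, then Rplp0, the base of the stalk, with 1165 ± 29.9 FPKM. The smallest ribosomal protein, Rpl41, stood at 1126 ± 11.6 and the X-linked Rps4x at 1034 ± 2.95 FPKM. The ranges of Rps15 and Rplp0 overlapped, so their order was not resolved, and the lowest Rplp0 library (1137.4 FPKM) lay just above the highest of Rpl41 (1136.99). At the low end stood Rpl32l at 2.33 ± 1.29 FPKM, Rpl34 at 10.5 ± 0.208, Rpl35a at 27.4 ± 1.03, Rpl29 at 28.01 to 32.6 over the 3 libraries, and Rps10 at 31.1 ± 1.54. The ranges of Rpl35a and Rpl29 overlapped, as did those of Rpl29 and Rps10.

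This order depends on the length used. The exonic sizes in the table (383 to 6270 bases) exceed the coding sequences (138 to 1257 bases in GENCODE vM21) by a median factor of 4.12, from 1.22 to 16.1. How these sizes were made is not stated in the labels. Per kilobase of coding sequence Rpl41 ranked first in control cells with 9493 CPM per kilobase. Rps24, whose product sits in the small subunit, ranked second with 2472 against rank 59 by FPKM. Spearman's rho between the 2 scales was 0.75 over 81 genes, given as a description. The tested Rpl6l and Rpl32l had no coding length there and were left out. Replicates were close: the median coefficient of variation per gene was 1.82% over control libraries, 3.57% after UVA and 4.01% after co-treatment. The genes lie on 19 chromosomes, 14 of them on chromosome 7.

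Start sites were read from RefSeq (GRCm38.p6), which matched 64 of the 86 genes. The 30 bases centred on the start are shown for the members that moved most, for Rps6, the substrate of S6 kinase, for long and short tracts, and for 2 pairs of paralogs. Capitals mark the longest unbroken run of C and T in each window, 5′ to 3′ on the gene's strand.

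Rps12: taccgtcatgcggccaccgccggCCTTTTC
Rpl39l: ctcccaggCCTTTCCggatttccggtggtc
Rpl39: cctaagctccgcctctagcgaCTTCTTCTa
Rps27l: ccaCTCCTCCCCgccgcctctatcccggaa
Rps27: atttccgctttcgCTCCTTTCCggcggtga
Rpl14: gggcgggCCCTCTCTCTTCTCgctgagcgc
Rpl27a: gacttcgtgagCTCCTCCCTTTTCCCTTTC
Rps6: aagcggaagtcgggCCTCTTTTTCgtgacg
Rpl35: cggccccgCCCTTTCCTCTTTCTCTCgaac
Rps18: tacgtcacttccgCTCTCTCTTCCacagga
Rps2: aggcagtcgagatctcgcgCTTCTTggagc
Rpl41: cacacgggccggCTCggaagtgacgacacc

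These windows lie at chr10:23787195-23787224 on the minus strand (Rps12), chr16:10170213-10170242 plus (Rpl39l), chrX:37085208-37085237 minus (Rpl39), chr9:66946071-66946100 plus (Rps27l), chr3:90213634-90213663 minus (Rps27), chr9:120571502-120571531 plus (Rpl14), chr7:109519180-109519209 plus (Rpl27a), chr4:86857353-86857382 minus (Rps6), chr2:39005117-39005146 minus (Rpl35), chr17:33955651-33955680 minus (Rps18), chr17:24720048-24720077 plus (Rps2) and chr10:128549154-128549183 minus (Rpl41). Rps27l has another listed start, at chr9:66946398-66946427, whose longest run is 4 bases. Rpl27a has a run of at least 19 bases, Rpl35 one of 18 and Rpl14 one of 14, while that of Rpl41 is 3 bases long. Runs were measured only within these 30 bases. Those of Rpl27a and Rps12 reach the last base, so their lengths are lower bounds. Some runs, such as those of Rps27l and Rpl39, do not include the start itself. A run of at least 8 bases occurred in 28 of the 64 genes (43.8%), against 13.9% of 27025 genes with a start in the table. The letters CTCTTTC occurred on either strand of the 300 bases from 250 before to 50 after the start in 26.6% of the 64 genes and in 9.28% of all. CCGGAAG, whose reverse complement overlaps CTTCCG, occurred in 39.1% against 9.93%, and TATAAA in 12.5% against 15.7%. These are matches of letters, not mapped tracts or sites.

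After UVA the mRNAs of many ribosomal protein genes were slightly higher. Of the 83 tested genes, 49 rose against control and 0 fell (edgeR quasi-likelihood test, Benjamini-Hochberg adjusted p below 0.05 over 14151 genes). No member was lower at an unadjusted p below 0.05 either, and DESeq2 called 46 higher and 0 lower. Of all tested genes 29.3% were called, 14.7% higher and 14.6% lower, and of the 2399 with a mean of at least 100 CPM 27.9% were called higher. The median fitted log2 fold change was 0.12, an 8.72% increase, against 0.00 over all tested genes, and 78 members lay above 0 (50.5% of all tested genes did). In 56 members all 3 UVA libraries lay above all 3 control libraries, which held for 21.1% of all tested genes and 35.6% of the abundant ones. These values are relative to each library's total: a change in RNA per cell, or in the make-up of the culture, cannot be told apart from them.

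Summed over all 86 genes, ribosomal protein mRNA held 4.81, 4.86 and 4.88% of the counts in the control libraries. After UVA it held 5.02, 5.31 and 5.27%, and after co-treatment 4.86, 5.09 and 5.10%. UVA libraries thus lay above control (exact two-sided permutation p = 0.1, the smallest that 3 against 3 allows; BH-adjusted p = 0.257 over 18 such tests), and co-treated libraries overlapped both groups (exact p = 0.3 in each case). With mitochondrial RNA left out of the total, UVA libraries still lay above control, by 0.381 percentage points against 0.353 with it. Within each irradiated group library 1 was the lowest. In UVA library 1 63 of the 83 genes exceeded their control mean, against 82 and 77 in libraries 2 and 3. In the co-treated libraries 39, 64 and 66 genes did.

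**Figure D1:**
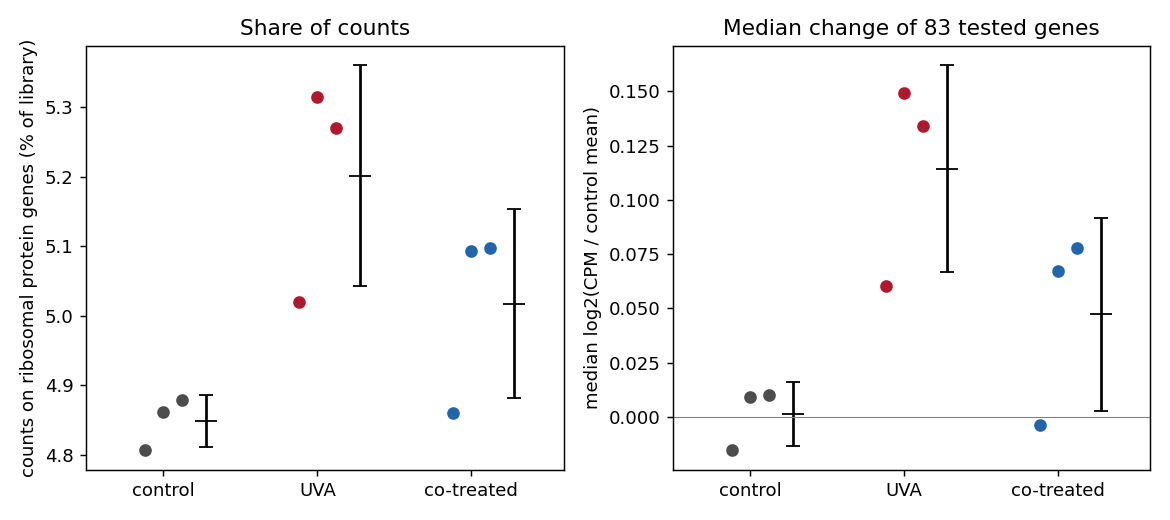
Left: counts on the 86 ribosomal protein genes as a percentage of each library's counts. Right: the median over the 83 tested genes of log2(CPM / control mean). Points are libraries 1 to 3 from left to right, bars the group mean ± SD (n = 3). The UVA libraries lie above all control libraries in both panels, and co-treated library 1 lies within the control range.

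Genes of both subunits rose. In UVA against control 27 of 52 large-subunit genes (median log2 fold change 0.11) and 22 of 31 small-subunit genes (0.13) rose. The ratio of large- to small-subunit counts was 1.589, 1.585 and 1.587 in control libraries, 1.555, 1.561 and 1.574 after UVA and 1.577, 1.573 and 1.558 after co-treatment. It was lower than control in both irradiated groups without overlap (exact p = 0.1 for each, the smallest possible). By position in the ribosome, 10 of 14 genes of the small-subunit head rose (71.4%, median 0.14), against 14.7% of all tested and 27.9% of abundant genes. At the exit tunnel for the growing chain 2 of 7 genes rose (28.6%, median 0.07), near the share of abundant genes.

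The largest called rise was in Rps12, a protein of the small-subunit head. Its level was 359, 376 and 375 CPM in control libraries, 434, 475 and 473 after UVA and 423, 442 and 423 after co-treatment. All 6 irradiated libraries lay above all controls, and the log2 fold change was 0.31 ± 0.04 (SE) in UVA (adjusted p = 5.5e-07) and 0.21 ± 0.04 in co-treated cells (adjusted p = 0.000196). The second was Rpl39l, a paralog of the tunnel protein Rpl39 known from testis, with 111, 114 and 112 CPM in control libraries, 131, 139 and 134 after UVA and 122, 129 and 135 after co-treatment. It rose by 0.26 ± 0.05 in UVA (adjusted p = 7.08e-05) and by 0.20 ± 0.05 in co-treated cells (adjusted p = 0.00185). Rps27l, a paralog of Rps27 known as a p53 target, had 106, 109 and 115 CPM in control libraries, 129, 136 and 122 after UVA and 121, 124 and 135 after co-treatment. Again no irradiated library reached down to the controls, with log2 fold changes of 0.23 ± 0.05 and 0.20 ± 0.05 (adjusted p = 0.00105 and 0.00369).

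The P-stalk genes rose together in UVA cells. Rplp1 read 631, 635 and 675 CPM in control and 676, 789 and 788 in UVA libraries, a log2 fold change of 0.22 ± 0.05 (adjusted p = 0.000802), with UVA library 1 only just above control library 3. Rplp0 read 1913, 1876 and 1983 against 2072, 2159 and 2203 CPM, a change of 0.16 ± 0.04 (adjusted p = 0.00107). Rplp2, the other acidic stalk protein, changed by 0.13 ± 0.04 (adjusted p = 0.0181).

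Rpl5 and Rpl11, which carry 5S ribosomal RNA and bind MDM2, both rose. Rpl5 read 993, 1039 and 1012 CPM in control and 1121, 1125 and 1113 in UVA libraries (log2 fold change 0.14 ± 0.04, adjusted p = 0.00464). Rpl11 read 459.8, 476 and 465 against 494, 529.7 and 515 CPM (0.14 ± 0.04, adjusted p = 0.0112). Rpl23, another MDM2-binding protein, changed by 0.12 ± 0.04 (adjusted p = 0.0147). UVA libraries lay above control for all 3 genes, while their co-treated libraries overlapped both groups. Mdm2 itself, no ribosomal gene, stood at 104, 103 and 114 CPM in control libraries, 181, 186 and 216 after UVA and 178, 196 and 213 after co-treatment.

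Among the other large-subunit genes, Rpl14 read 499.7, 499 and 500.0 CPM in control and 561, 583 and 588 in UVA libraries (log2 fold change 0.21 ± 0.04, adjusted p = 8.87e-05). Rpl30 rose by 0.20 ± 0.05, Rpl23a, at the tunnel exit, by 0.19 ± 0.03, Rpl27a by 0.16 ± 0.04 and Rpl10, which completes the late large subunit, by 0.15 ± 0.03. All 5 genes also rose in co-treated cells. Among small-subunit genes, Rps23 of the decoding centre (0.21 ± 0.04), Rps13 (0.20 ± 0.04), Rps4x (0.19 ± 0.04) and Rps20 (0.19 ± 0.04) rose in UVA cells. Rps6 rose by 0.12 ± 0.03 (adjusted p = 0.0067) and Rpsa, also known as the laminin receptor, by 0.09 ± 0.03, close to the threshold (adjusted p = 0.0495).

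At the other end no member fell after UVA. The lowest fitted changes were those of Rps2 (−0.09 ± 0.05, adjusted p = 0.206), Rps18 (−0.05 ± 0.05, 0.493) and Rpl41 (−0.03 ± 0.04, 0.697). For the abundant Rpl41 the 95% interval was −0.11 to 0.06. Its libraries read 1293, 1310.1 and 1327 CPM in control and 1192, 1342 and 1328 in UVA, with UVA library 1 below all others of both groups.

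**Figure D2:**
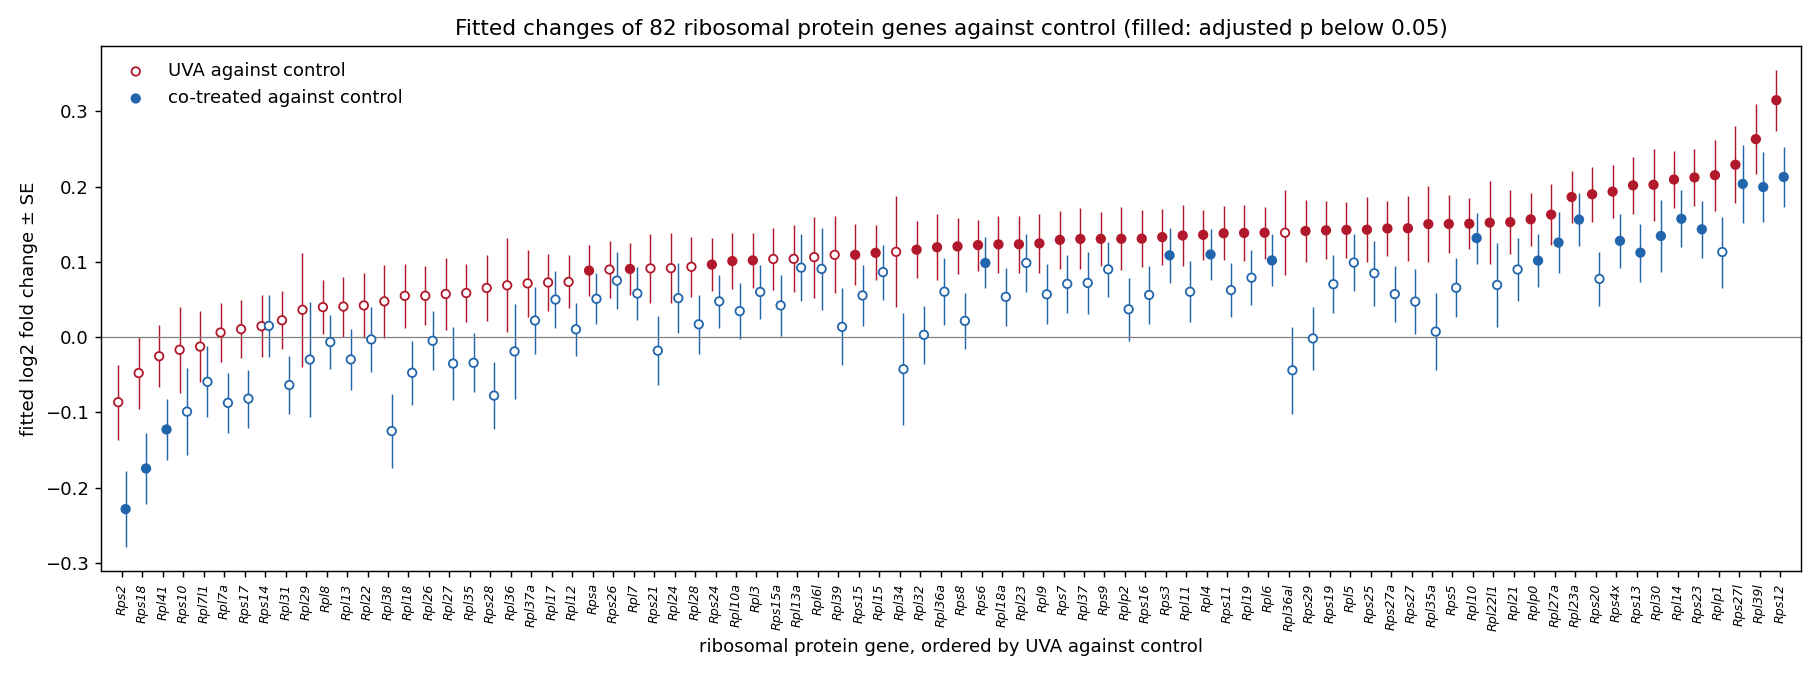
Fitted log2 fold change ± SE against control of 82 tested ribosomal protein genes, ordered by UVA against control (red), with co-treated against control in blue. Filled points had an adjusted p below 0.05. Rpl32l, at 0.927 CPM in control, is left out because its interval would set the axis. The blue points lie mostly below the red ones, and both series share the same control libraries.

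The UVA count depended on single libraries and on the values tested. Without control library 1 or without UVA library 2 it was 30, and in the other leave-one-out fits 35 to 53. Of the 27 named genes called in UVA against control, Rpl3, Rpl7, Rpl11, Rpl22l1, Rpl23, Rpl35a, Rpl36a, Rplp2, Rps15, Rps27 and Rpsa lost their call when one library or another was left out, and 16 kept it each time. Other scalings within edgeR gave 41 to 50 higher. With limma on TPM, which changes the scale and the test together, 11 members rose and 1 fell, at a member median of 0.07 and an all-gene median of −0.04, and 34.1% of all called genes were higher against 50.2% with edgeR.

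Setting co-treated beside UVA cells addresses what α-arbutin added to the irradiated cells. No member passed the test: 0 of 83 were called by edgeR and 0 by DESeq2, where 0.0353% of all tested genes (5) were called. The smallest adjusted p was 0.425. Yet the fitted changes pointed one way. In 82 of 83 members they lay below 0, against 50.0% of all tested genes and 54.1% of the abundant ones, with a median of −0.07 (all genes 0.00). At an unadjusted p below 0.05 26 members were lower and 0 higher (edgeR), against 442 lower and 515 higher of 14151 genes. Co-treated libraries lay below all UVA libraries in 16 members, which held for 5.31% of all tested genes and 5.96% of the abundant ones. The 95% intervals included 0 in 57 members and lay below it in 26, which restates the unadjusted p-values, since both come from the same F statistic.

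The size was small and rested in part on single libraries. The median was −0.04 without co-treated library 1 and −0.09 without UVA library 1. For Rps12 the difference was −0.10 (95% interval −0.18 to −0.02), and for Rps4x −0.07 (−0.14 to 0.01). For Rps20 it was −0.11 (−0.19 to −0.04), with 748, 776 and 772 CPM in UVA against 694, 691 and 738 in co-treated libraries and no overlap. Rpl36al, a paralog of Rpl36a, had 73.6, 79.5 and 74.7 CPM in UVA and 61.9, 67.7 and 70.8 in co-treated libraries, a difference of −0.18 (−0.30 to −0.07). For the acidic stalk genes the differences were −0.10 (Rplp1, −0.20 to −0.01) and −0.09 (Rplp2, −0.18 to −0.01). Rpl38, picked for its smallest adjusted p after the values were seen, differed by −0.17 ± 0.05, with overlapping libraries. Near 0 were Rpl10 (−0.02, −0.09 to 0.05), Rps6 (−0.02, −0.09 to 0.05), Rpl23 (−0.02, −0.10 to 0.05) and Rps27l (−0.03, −0.13 to 0.08).

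The co-treated minus UVA difference was set beside gene length and abundance. Across members Spearman's rho was 0.44 with coding length (n = 81), 0.19 with the table's exonic size (n = 83) and 0.44 with control CPM (n = 83), while for UVA against control the values were −0.04, −0.02 and 0.07. In 3 classes of coding length (27 genes each) the median difference was −0.09 for 138 to 390 bases, −0.07 for 399 to 576 and −0.05 for 582 to 1257. These genes share their libraries, and whether RNA length or library preparation bears on the difference was not tested. In co-treated library 1 the shortest class had a median log2 ratio to control of −0.04 and the longest 0.03, and in UVA library 1 these were 0.06 and 0.07.

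Against control fewer members were called in co-treated than in UVA cells. Here 16 members rose and 3 fell, with a median log2 fold change of 0.06 (all genes 0.00) and 60 members above 0 (all genes 50.4%). Among all tested genes 25.8% were called, 13.0% higher and 12.9% lower, and of the abundant genes 24.2% were called higher. The members' share of higher calls was thus near this background. Groups did not overlap upward in 25 members, against 19.8% of all genes, and downward in 7, against 19.9%. Both comparisons against control share the control libraries, so the values are set side by side: Rpl14 had fitted changes of 0.21 in UVA and 0.16 in co-treated cells, Rpl23a 0.19 and 0.16, Rpl10 0.15 and 0.13, and Rps23 0.21 and 0.14. For Rplp1 they were 0.22 and 0.11 ± 0.05 (adjusted p = 0.0789 in co-treated cells), and for Rps20 0.19 and 0.08 ± 0.04 (adjusted p = 0.124). The 16 genes all belong to the 49 that rose in UVA cells. In 59 members the co-treated change lay between 0 and the UVA change. The matching share of all tested genes is not given, so this count is a description only.

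The 3 genes that fell in co-treated cells were Rps2, Rps18 and Rpl41. Rps2, at the mRNA entry of the small subunit, had 106, 117 and 117 CPM in control libraries, 107, 108 and 105 after UVA and 93.6, 101 and 95.1 after co-treatment. All co-treated libraries lay below all others, with a log2 fold change of −0.23 ± 0.05 against control (adjusted p = 0.000936). Rps18, of the small-subunit head, read 126, 131 and 123, then 123, 129 and 116, then 114, 112 and 110.5 CPM (−0.17 ± 0.05, adjusted p = 0.00681). Rpl41 read 1149, 1263 and 1198 CPM in co-treated libraries, below all 3 controls (−0.12 ± 0.04, adjusted p = 0.0276). Its call was lost in every leave-one-out fit except that without co-treated library 2, with adjusted p up to 0.125.

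The higher count was 8 without control library 1 or without co-treated library 2, 10 without control library 2, control library 3 or co-treated library 3, and 22 without co-treated library 1. The lower count was 1 without control library 2, where Rps18 and Rpl41 were not called. The calls of Rps12, Rpl39l, Rps27l, Rpl14, Rpl23a, Rpl10 and Rps2 held in all alternatives of this comparison.

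**Figure D3:**
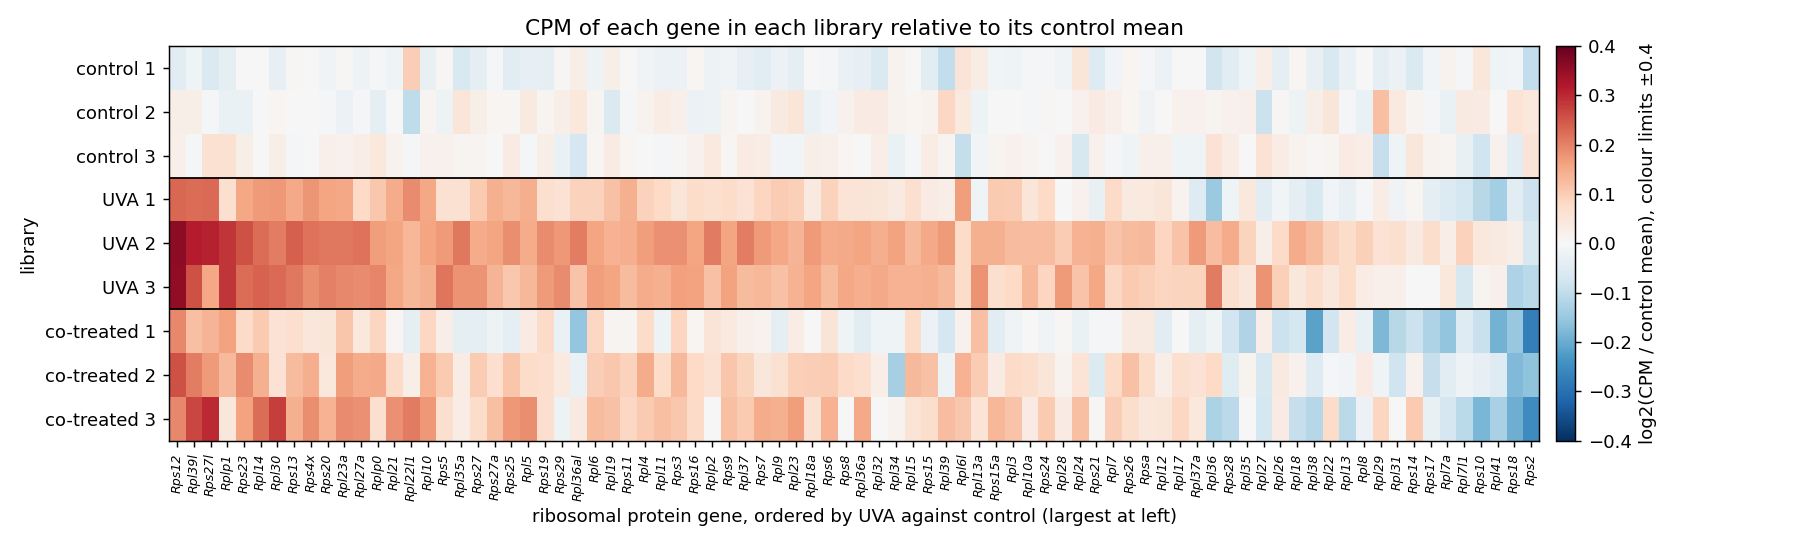
log2 of each gene's CPM over its control mean in the 9 libraries, for 82 tested ribosomal protein genes ordered by UVA against control. Colours stop at ±0.4. UVA libraries 2 and 3 are red across most genes, UVA library 1 and the co-treated libraries are paler, and Rps2 and Rps18 at the right are blue in all 3 co-treated libraries.

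For some members most counts stood on rows of processed pseudogenes, near-identical intronless copies. The table has 321 rows named as pseudogenes of 63 members, 213 of them with a count. Together they held 0.347 to 0.366% of the counts, with overlapping groups (exact p = 0.7 for UVA against control). In 4 members these rows held more counts than the gene over the 9 libraries: Rps2 (183836 against 17120), Rpl34 (20890 against 4559), Rps10 (17186 against 11261) and Rps18 (23160 against 19476). How reads that match several places were counted is not stated in the labels, so for these genes the levels and the changes of the gene row are uncertain.

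The Rps2 rows show it most. Rps2-ps13, on chromosome X from 51987465 to 51988346 (mm39) and picked after its counts were seen, held 136944 counts, more than Rps2 itself. The pseudogene rows of Rps2 summed to 1194, 1167 and 1241 CPM in control libraries, 1098, 1103 and 1083 after UVA and 1073, 1112 and 1129 after co-treatment, so both irradiated groups lay below control. Those of Rps18 were not lower after co-treatment, unlike the gene row: 131, 128 and 143, then 139, 154 and 147, then 140.3, 151 and 154 CPM. With named pseudogene rows added to their gene, an alternative chosen after the data were seen, Rps2 fell by 0.13 ± 0.03 in UVA (adjusted p = 0.00539) and by 0.13 ± 0.03 in co-treated cells (adjusted p = 0.00603). The difference between co-treated and UVA cells was then 0.00 ± 0.03. Rps18 no longer fell: its change in co-treated cells was 0.00 ± 0.04 (adjusted p = 0.992). Rpl41 kept −0.12. The counts became 48 higher and 1 lower in UVA and 17 higher and 3 lower in co-treated cells. Of the 103 tested pseudogene rows 5 rose and 1 fell after UVA (5.83% called, against 29.3% of all tested genes, median 0.12). Of the 21 tested members without a named pseudogene row, 11 rose and 0 fell in UVA cells. That is 52.4%, against 14.7% of all tested and 27.9% of abundant genes called higher. In co-treated cells 5 of them rose and 1 fell (28.6% called, near the 25.8% of all tested genes).

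**Figure D4:**
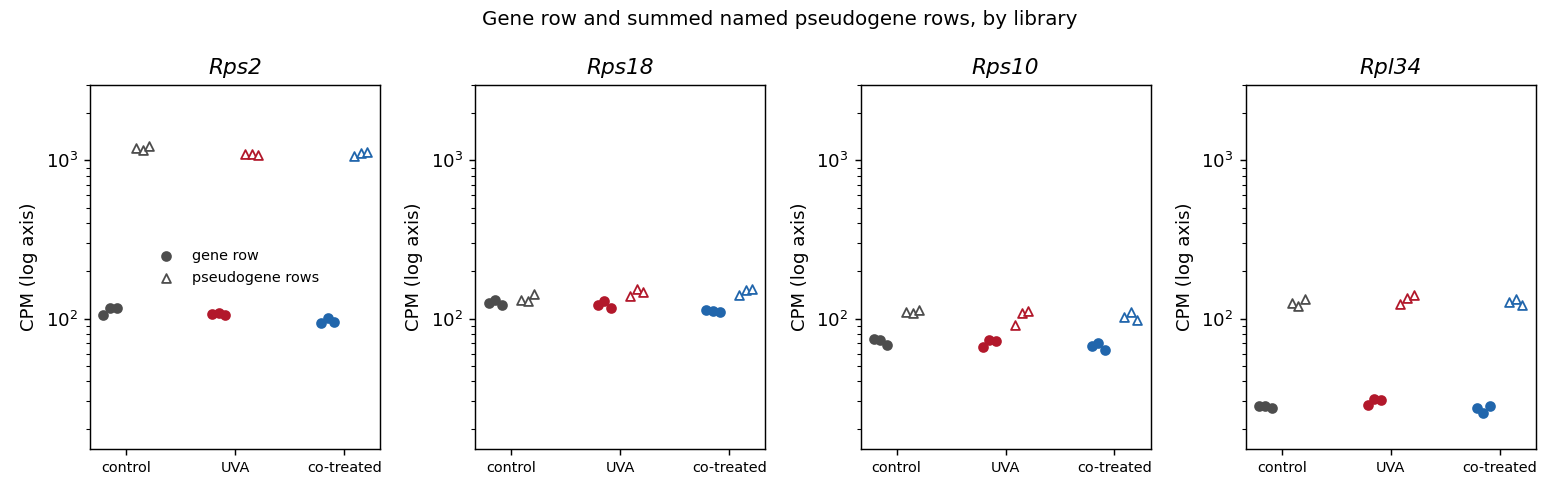
CPM of the gene row (filled circles) and of the summed named pseudogene rows (open triangles) in each library, on a log axis, for the 4 members with more counts on pseudogene rows. Each point is 1 library of control, UVA or co-treated cells. For Rps2 the triangles (1073 to 1241 CPM) stand far above the circles (93.6 to 117 CPM), and for Rps18 the triangles of the co-treated libraries lie above their circles.

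In 4 tested members an overlapping gene of the opposite strand held counts equal to at least 10% of the member's. Vps52 held counts equal to 33.0% of those of Rps18, Ube2s 30.3% of Rpl28, Ndst1 22.5% of Rps14 and Arpc5l 14.4% of Rpl35. Other members had such overlaps at smaller shares, for example Cand2 with 6.19% of Rpl32. Whether counting used strand is not stated in the labels, so reads of these pairs may not be separate.

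A ribosomal protein gene and its paralog were compared by their FPKM ratio in each library, for 6 pairs. For Rpl6l no coding sequence was found in GENCODE vM21, so its pairing with Rpl6 rests on the symbol. The ratio of Rpl39l to Rpl39 was 1.02, 0.921 and 0.949 in control libraries, 1.10, 1.06 and 1.05 after UVA and 1.10, 1.12 and 1.06 after co-treatment, above control without overlap in both irradiated groups. Rpl39 itself read 188, 214 and 203 CPM in control and 205, 227 and 220.4 in UVA libraries, with overlap (0.11 ± 0.05, adjusted p = 0.112). The ratio of Rps27l to Rps27 was 0.699, 0.694 and 0.736 in control libraries, 0.773, 0.793 and 0.697 after UVA and 0.800, 0.746 and 0.831 after co-treatment, apart from control only in the co-treated group. Rpl36al to Rpl36a read 0.254, 0.246 and 0.233, then 0.251, 0.252 and 0.239, then 0.226, 0.229 and 0.226, lowest in co-treated libraries. Rpl7l1 to Rpl7 was lower in co-treated than in control libraries, and the ratios of Rpl22l1 to Rpl22 and of Rpl6l to Rpl6 overlapped in all comparisons. Each separation had an exact permutation p = 0.1, the smallest possible, and 0.3 after Benjamini-Hochberg adjustment over the 18 ratios and comparisons, so none passed.

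Members with longer and shorter pyrimidine runs in the window around the start were set side by side. Of the 28 genes with a run of at least 8 pyrimidines 13 rose in UVA cells (median 0.11), and of the 34 tested genes with a shorter run 22 did (0.13). These are 46.4% and 64.7%, against 14.7% of all tested and 27.9% of abundant genes called higher. In co-treated against UVA cells the medians were −0.08 and −0.06. Rpl35, with its run of 18 bases, and Rpl41, with 3, both missed the UVA threshold. Rpl27a, with at least 19, and Rps12, with at least 7, both passed it. The run of Rps12 reaches the edge of the window, so its place among the shorter runs is uncertain. The difference between the sets was not tested. Rpl35, Rps24, Rpl28 and Rps14 were picked for display after their values were seen.

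Other genes of translation and growth were set beside the ribosomal proteins. Rack1, a scaffold protein of the small subunit, had a log2 fold change of 0.09 ± 0.03 in UVA cells (edgeR adjusted p = 0.0572) and Fau, whose product includes a small-subunit protein, one of 0.04 ± 0.04 (adjusted p = 0.425), and neither passed. The counts below stand against 14.7% of all tested genes called higher and 14.6% lower after UVA, 29.3% in all, and 27.9% of abundant genes higher. Of 23 other TOP mRNAs 8 rose and 0 fell (edgeR, also 0 lower at an unadjusted p below 0.05, median 0.06). That 34.8%, all higher, stood above the 14.7% of all tested genes and near the 27.9% of abundant ones. Among them Eef1a1, which brings aminoacyl-tRNA to the ribosome, rose by 0.27 ± 0.03 on the log2 scale. It had 10628 ± 111 CPM (SD, n = 3) in control and 12849.9 ± 257 CPM in UVA libraries. Of 65 ribosome biogenesis genes 37 rose and 1 fell (58.5% called, median 0.16), among them Nhp2 and Dkc1 of the box H/ACA particles (0.44 ± 0.05 and 0.34 ± 0.04) and Utp20 of the small-subunit processome (0.34 ± 0.04). Of 56 Eif genes 14 rose and 4 fell (32.1% called, near the 29.3% for either direction, median 0.06), with Eif5 at 0.41 ± 0.04 and Eif1 at 0.34 ± 0.04.

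Of 35 proteasome genes 28 rose and 1 fell after UVA (82.9% called, median 0.16). The mitochondrial lists lay below the 29.3% of all genes called in either direction. Of 77 mitochondrial ribosome genes 15 rose and 1 fell (20.8%, median 0.05), and of 88 respiratory chain genes 20 rose and 1 fell (23.9%, median 0.09). In each list the share called higher lay above the 14.7% of all tested genes and below the 27.9% of abundant ones. In co-treated against UVA cells 0 genes were called by edgeR in these lists (at an unadjusted p below 0.05 5 biogenesis, 2 TOP, 2 Eif, 6 mitochondrial ribosome, 3 proteasome and 11 respiratory chain genes were lower and 0 higher), with medians of −0.03 for ribosome biogenesis, −0.04 for other TOP mRNAs and Eif genes, −0.05 for the mitochondrial ribosome and −0.06 for the proteasome and the respiratory chain. The fitted level was below that of UVA cells in 79 of 88 respiratory chain, 33 of 35 proteasome, 46 of 56 Eif, 18 of 23 other TOP, 49 of 65 biogenesis and 55 of 77 mitochondrial ribosome genes, against 50.0% of all tested and 54.1% of abundant genes. In co-treated against control 29 biogenesis genes rose and 1 fell, and of the proteasome genes 14 and 2 (46.2% and 45.7% called, against 25.8% of all genes).

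**Figure D5:**
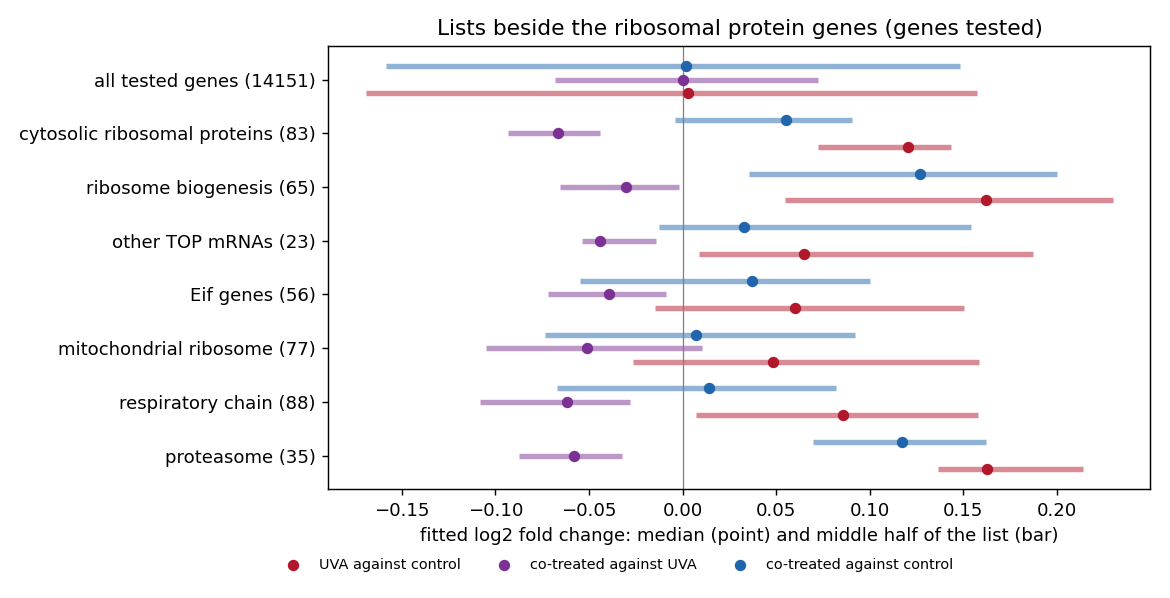
Median (point) and middle 50% (bar) of the fitted log2 fold changes of the ribosomal protein genes, all tested genes and 6 other lists, with the number of tested genes in parentheses. Red is UVA against control, purple co-treated against UVA and blue co-treated against control. The ribosomal protein genes have a narrow bar, above 0 in red (0.072 to 0.144) and below 0 in purple. The bars of the proteasome (red 0.136 to 0.214), ribosome biogenesis, other TOP and respiratory chain lists also lie above 0 in red and below 0 in purple.

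Genes known to act on ribosomal protein mRNA gave mixed values. Of 21 tested genes of MYC and mTOR control 8 rose and 2 fell after UVA (47.6% called, against 29.3% of all genes, median 0.04). Myc, a transcription factor of ribosomal genes, read 123, 126 and 113 CPM in control and 124, 123 and 117 in UVA libraries (0.01 ± 0.05, adjusted p = 0.911). Larp1 had a log2 fold change of 0.08 ± 0.04 in UVA (adjusted p = 0.119) and rose by 0.10 ± 0.04 in co-treated cells (adjusted p = 0.0412). Rptor and Akt1s1, which encode parts of an mTOR complex, rose by 0.36 ± 0.05 and 0.35 ± 0.06 in UVA cells. Whether either rise bears on the activity of the complex was not tested. Of 13 genes of ribosome quality control 0 rose (1 at an unadjusted p below 0.05) and 2 fell (edgeR), 15.4% and close to the 14.6% of all genes called lower: Gtpbp2, a ribosome rescue factor, by 0.65 on the log2 scale and the stress kinase gene Eif2ak4 by 0.22. These are mRNA levels, and translation was not measured.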

How the data were processed

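RNA of 9 NIH/3T3 libraries (3 per group) was sequenced. Per the labels' protocols, RNA was isolated with a TransZol kit and 2 ug of total RNA entered a VAHTS Universal V8 library kit. Per the submitters' processing notes, the tools were bcl2fastq 2.20.0.422, cutadapt 1.9.1, HISAT2 2.2.1 and HTSeq 0.6.1 with mm39. Annotation release, strand setting and treatment of multiply matching reads are not stated there. The authors deposited raw read counts per gene and FPKM values in 1 table. All 510219 FPKM values lay within 0.01 of count over exonic size and library total. Control columns carry another prefix than the titles and were assigned because every other prefix matches another group's titles.

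The deposited counts were tested with edgeR 4.0.16 (filterByExpr, TMM, quasi-likelihood F test, group-only design over 9 libraries, R 4.3.3) over 14151 of 56691 genes, with Benjamini-Hochberg adjusted p below 0.05 as threshold. SE is the log2 fold change over the square root of F, intervals are 95%, and CPM is TMM-scaled. Shares and ratios were compared by two-sided exact permutation tests (scipy 1.17.1), whose smallest p is 0.1. Alternatives used DESeq2 1.42.0 and limma 3.58.1. The code was tested on simulated data.

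Members and lists were chosen with earlier results of these data known. Named members are, per comparison, the 10 largest called increases and decreases, the 5 highest and 5 lowest control FPKM, paralogs with partners, Rpl5, Rpl11, Rpl23, the P-stalk genes, Rpsa and Rps6. In each other list up to 3 genes with the smallest p after UVA were named, and Fau, Rack1, Myc, Larp1 and Mdm2 in any case. Some items under this rule are not reported here. Sequences of start sites are RefSeq's (GRCm38.p6).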

Additional observations from a re-analysis of the deposited data

How the results depend on the processing

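The median of the members stayed above 0 in UVA against control and below 0 in co-treated against UVA cells in all alternatives, and 0 members were called between the irradiated groups in each. In UVA against control (49 higher, 0 lower) quantile normalization with limma-voom gave 32 higher and 1 lower, log2(TPM + 1) 11 and 1 with a median of 0.067, log2(FPKM + 1) 24 higher, added pseudogene rows 1 lower, and members without pseudogene rows 11 higher. Leaving out 1 library gave 30 to 53 higher. Rpsa turned to −0.028 (adjusted p = 0.525) with quantile normalization. In co-treated against control (16 higher, 3 lower) quantile normalization gave 7 lower, TPM 7 higher and 6 lower (41.5% of all called genes higher against 50.2%), FPKM 8 higher, and members without pseudogene rows 5 higher and 1 lower. Leaving out 1 library gave 8 to 22 higher and 1 to 4 lower. Rps18 turned to 0.000852 with pseudogene rows added. Both pseudogene alternatives, and coding length for levels, were chosen after seeing the data.

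With the replicate block the counts were 52 higher and 0 lower after UVA, 0 and 0 between irradiated groups, and 20 and 4 in co-treated against control. Deviations of same-numbered libraries correlated above 0.1 in 1 of 9 cases. Between UVA and co-treated libraries the values were 0.092, 0.049 and 0.115, and in pairs with control −0.011 to 0.037. Whether same-numbered libraries share more than a number was not tested. With 3 libraries per group, changes near 0.1 on the log2 scale lie close to what this spread resolves.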
